A study of Homo sapiens with 10 samples.

Results

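The mitochondrial ribosomal proteins were the 78 genes of the expression table whose symbol starts with MRPL or MRPS and a number, 49 for the large (MRPL) and 29 for the small (MRPS) subunit, out of 16734 genes in all. They were followed in MIA PaCa-2, an established human cell line from a pancreatic carcinoma. Cells were kept for 24 h with 10 µM hydroxyprogesterone caproate (HPC), a synthetic progestin ester, or with the same volume of its solvent DMSO, in 5 libraries each, and all were the same line in the same serum-containing medium. Libraries are labelled as biological replicates with no word on separate cultures, and the p-values cover no more than the spread among those libraries. The study used this 1 line, 1 dose and 1 time.

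Mitochondrial ribosomes translate the few mRNAs of the mitochondrial genome, which code for core subunits of the respiratory chain and of ATP synthase. All of their proteins are made from nuclear genes in the cytosol and imported, while their rRNAs are transcribed in the organelle. The small subunit binds the mRNA and decodes it, and the large subunit joins the amino acids and feeds the new chain through its exit tunnel to the inner membrane. Many of the proteins descend from bacterial ribosomal proteins, and others were added in mitochondria.

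The line was checked against its markers first, in FPKM (reads of a gene divided by its length and by the library total). The epithelial keratins KRT8 (57.7 FPKM with HPC and 51.8 with DMSO) and KRT18 (149.9 with HPC and 114 with DMSO) and the mesenchymal filament VIM (333 with HPC and 695 with DMSO) were high. EPCAM (0.00222 with HPC and 0.00197 with DMSO) and CDH1 (0.00247 with HPC and 0.00103 with DMSO), which mark most epithelia, were near 0, as was KRT7 (0.0352 with HPC and 0.226 with DMSO). The keratin KRT19 had 10.1 FPKM with HPC and 24.0 with DMSO, the opposite order to KRT8 and KRT18. The leukocyte marker PTPRC and the fibroblast markers DCN and LUM stayed under 0.01 FPKM. The fibroblast collagen COL1A2 had 0.809 FPKM with HPC and 25.8 with DMSO, and its part in the results was not tested. The myeloid marker CD14 had 0.0739 FPKM with HPC and 0.487 with DMSO, and the endothelial VWF had 0.0141 with HPC and 0.0334 with DMSO. Whole reads recovered from the table numbered 65851176 to 74477071 per HPC library and 71602736 to 82218527 per DMSO library. Log2 values correlated at 0.989 to 0.994 within the groups and at 0.842 to 0.863 between them.

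Promoters of members that changed in opposite directions are printed here so that they can be read side by side. RefSeq held promoter sequence for 69 of the 78 members. The 6 shown are the 3 lowest and the 3 highest members by log2 fold change among those with 1 annotated start and at most 30 window bases in an annotated exon. Each window is the 250 bases before the gene start that RefSeq gives in GRCh38.p14, 5′ to 3′ on the gene's strand. Exons and gene spans are those of GENCODE 29, whose starts can differ: its longer span of MRPL11 holds the whole window shown. Capitals mark the motif CCGGAAG of ETS factors, on either strand; the palindromic NRF1 motif and the ATF4 motif TGATGNAA were searched in the same way and are in none of these 6. The lower members come first, at chr1:175023426-175023675 (- strand), chr1:1407294-1407543 (- strand) and chr11:66438849-66439098 (- strand).
MRPS14: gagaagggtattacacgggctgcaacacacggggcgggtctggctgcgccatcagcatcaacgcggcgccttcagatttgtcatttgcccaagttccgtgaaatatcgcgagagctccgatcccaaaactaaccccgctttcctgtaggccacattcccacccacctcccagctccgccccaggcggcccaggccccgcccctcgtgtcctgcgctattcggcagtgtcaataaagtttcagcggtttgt
MRPL20: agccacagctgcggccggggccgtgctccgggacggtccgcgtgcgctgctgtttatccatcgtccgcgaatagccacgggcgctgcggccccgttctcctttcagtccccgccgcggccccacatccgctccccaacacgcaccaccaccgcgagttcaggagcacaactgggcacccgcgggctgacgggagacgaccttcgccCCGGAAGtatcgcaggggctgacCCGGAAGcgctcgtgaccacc
MRPL11: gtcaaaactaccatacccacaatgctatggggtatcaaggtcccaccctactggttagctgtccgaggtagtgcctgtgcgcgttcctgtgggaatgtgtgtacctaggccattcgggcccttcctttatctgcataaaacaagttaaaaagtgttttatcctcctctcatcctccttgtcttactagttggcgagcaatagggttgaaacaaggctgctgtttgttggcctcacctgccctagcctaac
The higher members follow, at chr6:43687792-43688041 (- strand), chr19:3762432-3762681 (+ strand) and chr17:75012420-75012669 (+ strand).
MRPS18A: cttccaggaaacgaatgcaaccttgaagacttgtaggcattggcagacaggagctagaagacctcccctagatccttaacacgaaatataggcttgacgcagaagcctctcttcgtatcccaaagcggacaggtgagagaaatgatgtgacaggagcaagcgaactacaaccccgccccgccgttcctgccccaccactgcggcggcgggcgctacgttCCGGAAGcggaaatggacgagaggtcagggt
MRPL54: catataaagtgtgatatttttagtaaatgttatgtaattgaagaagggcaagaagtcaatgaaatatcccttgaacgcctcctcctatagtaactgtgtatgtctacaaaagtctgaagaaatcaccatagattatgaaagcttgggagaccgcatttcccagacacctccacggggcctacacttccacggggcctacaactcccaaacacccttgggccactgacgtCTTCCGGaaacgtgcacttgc
MRPL58: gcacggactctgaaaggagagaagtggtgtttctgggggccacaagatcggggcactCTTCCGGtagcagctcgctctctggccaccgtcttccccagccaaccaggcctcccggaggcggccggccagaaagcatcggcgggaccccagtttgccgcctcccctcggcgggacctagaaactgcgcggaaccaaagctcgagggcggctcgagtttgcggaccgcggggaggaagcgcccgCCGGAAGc

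Motifs were then counted over members with a single promoter window. The ETS motif was in 21 of 58 members (36.2%), against 20.8% of 5479 tested genes with 1 window and 8.5% of all 34788 windows. It was in 10 of 27 lower members (37.0%), 9 of 18 higher members (50%) and 2 of 12 that did not pass. The choice to count single windows was made after both counts were seen, because windows of 1 gene share bases. Over all 85 windows of the 69 members it was in 27 (31.8%), against 16.2% of 10513 windows of tested genes, with 10 of 40 windows of lower members (25%) and 15 of 28 of higher members (53.6%). The gap between lower and higher members thus depended on the counting. The NRF1 motif was in 6 of 58 members (10.3%) and in 13.5% of the tested genes, and the ATF4 motif was in 1 of 58 members (1.72%) and in 0.967% of the tested genes. Over all windows both orders turned: NRF1 was in 11.8% of member windows, against 10.5% of windows of tested genes, and ATF4 in 1.18%, against 1.52%. The NRF1 motif was in 4 of 27 lower and 2 of 18 higher members with 1 window, and in 8 of 40 windows of lower and 2 of 28 of higher members over all windows. A match is a string of letters and not a bound site.

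With HPC, the mitochondrial ribosomal proteins were split, with more members lower than higher and most changes small. Of the 77 members tested, 36 fell and 25 rose at an adjusted p under 0.05 (limma on log2(FPKM + 0.1), over 9150 genes, adjusted by Benjamini-Hochberg), and 16 did not pass. Over all tested genes, 44.8% fell and 42.9% rose, so that 87.7% were called. The 5 HPC and 5 DMSO values did not overlap for 51 of the 77 members (66.2%), against 79.6% of all genes. The median log2 fold change, HPC over DMSO, was -0.07 over the members and -0.01 over all tested genes, and the median size of a change was 0.24 for members and 0.43 for all. Its SD was 0.38 over the members and 0.87 over all genes. Changes of at least 1.5-fold were called lower for 8 members, where 20.3% of all genes were so called, and higher for 1 member, where 16.9% of all genes were.

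How libraries are scaled bears on the sign of the small changes. Genes encoded by mitochondria held 13.8% to 15.9% of the FPKM with HPC and 21.9% to 23.8% with DMSO. Scaling to the FPKM of all other genes moved the median of all tested genes to -0.18 and of the members to -0.24, with 49 members lower and 11 higher, and turned the sign of 14 members. Of all 9150 tested genes, this scaling called 5015 lower and 2957 higher. It shifted each tested member by between -0.168 and -0.156 on the log2 scale. Of the 25 members called higher, 11 kept the call, 9 of them with a log2 fold change over 1.5 times smaller, 13 no longer passed and 1, MRPL3, was called lower. Of the 14 members whose sign turned, 6 were called higher as deposited: MRPL3, MRPL17, MRPL41, MRPS10, MRPS22 and MRPS30. In recovered reads the same mitochondrial genes held 1.56% to 1.82% with HPC and 2.25% to 2.51% with DMSO, and scaling to the reads of all other genes turned no member and kept the counts at 36 lower and 25 higher.

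**Figure D1:**
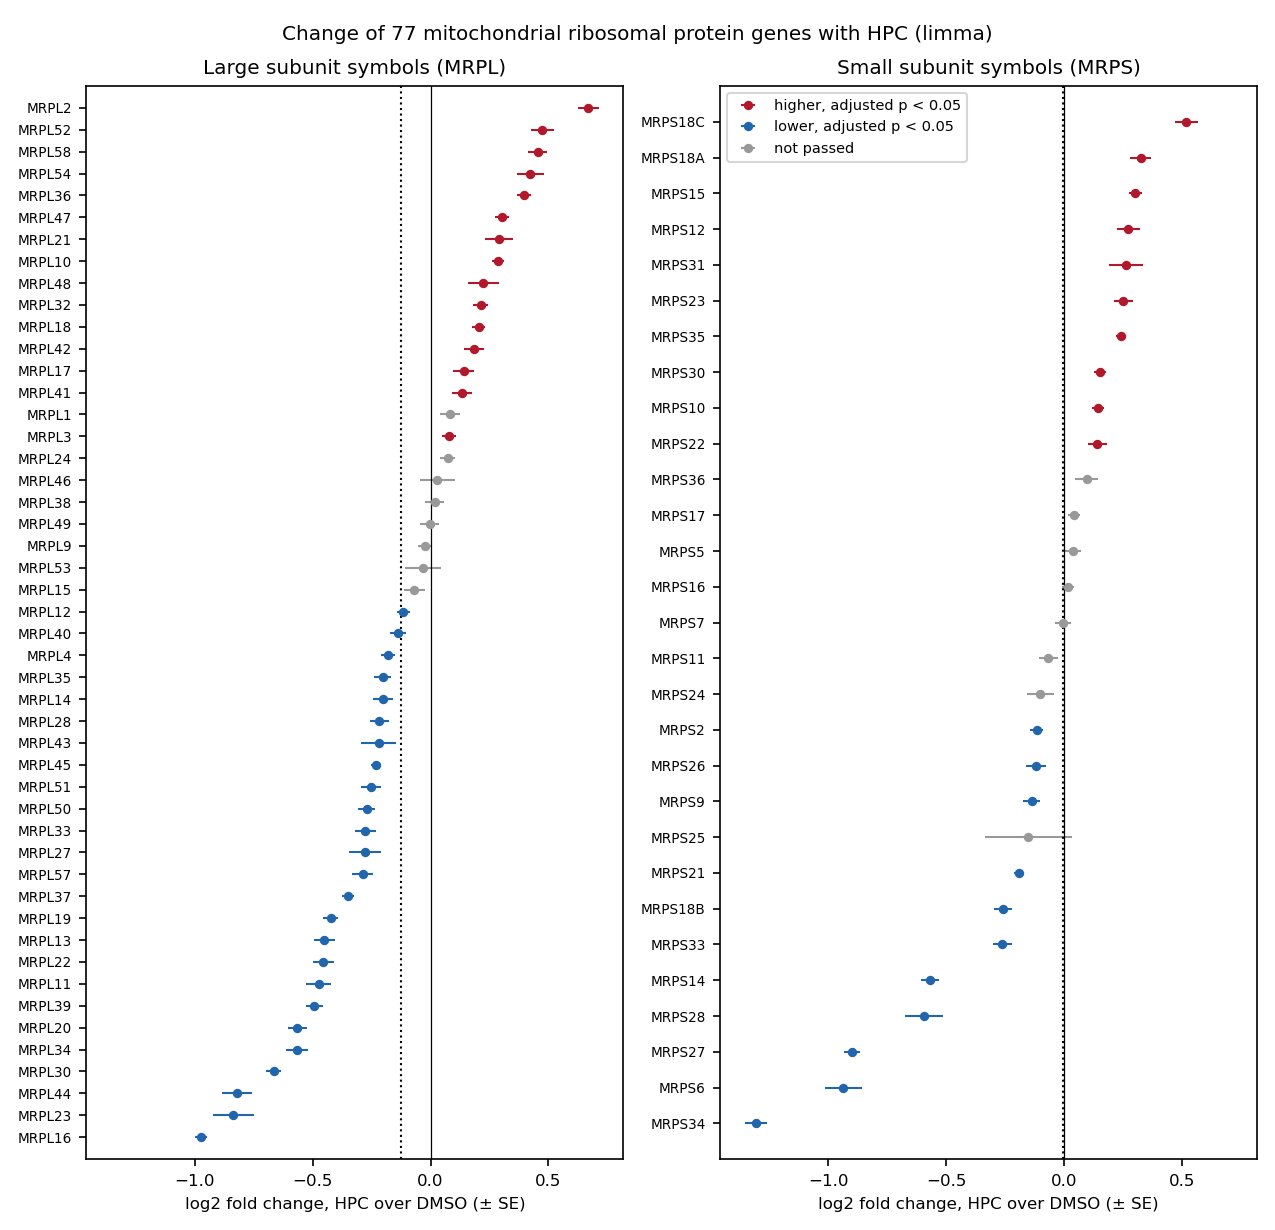
Log2 fold change, HPC over DMSO, of each of the 77 tested members with its standard error (5 libraries each), large subunit symbols on the left and small subunit symbols on the right, coloured by the limma call; the dotted line is the median of the panel. Values run between -1.31 (MRPS34) and 0.67 (MRPL2), and the higher calls of MRPL3, MRPL17, MRPL41, MRPS10, MRPS22 and MRPS30 turn sign when libraries are scaled to the FPKM of non-mitochondrial genes (MRPL41 and MRPS10 also under quantile normalization).

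Proteins of the small subunit held the lowest value. MRPS34, a protein added in mitochondria that is needed for a stable small subunit, had 6.41, 7.14, 6.93, 6.06 and 7.0 FPKM in the HPC libraries, against 16.5, 16.9, 17.9, 16.6 and 15.8 FPKM in the DMSO libraries. The gene (ENSG00000074071) lies at chr16:1771890-1773155 on the - strand in GENCODE 29. Every HPC library lay under every DMSO library, and the log2 fold change was -1.31 ± 0.047 (SE, adjusted p = 1.27e-11). MRPS6, related to bacterial S6, had 6.3, 6.4, 7.8, 7.33 and 7.43 FPKM in the HPC libraries, against 11.9, 12.3, 15.3, 14.1 and 14.5 FPKM in the DMSO libraries. The groups did not overlap, at a log2 fold change of -0.94 ± 0.079 (SE, adjusted p = 2.34e-07), and 9.6% of its exon bases overlap another gene, among them the transporter gene SLC5A3 on the same strand.

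MRPS27, a pentatricopeptide repeat protein of the small subunit, had 5.87, 5.76, 6.07, 6.43 and 6.24 FPKM in the HPC libraries, against 11.4, 11.1, 11.4, 11.4 and 11.8 FPKM in the DMSO libraries. HPC libraries were again all lower, and the log2 fold change was -0.90 ± 0.033 (SE, adjusted p = 1.43e-11). MRPS28 averaged 1.48 ± 0.174 FPKM with HPC and 2.28 ± 0.233 FPKM with DMSO (SD, n = 5 each), a log2 fold change of -0.60 ± 0.080 (SE, adjusted p = 9.85e-06); 35.8% of its exon bases overlap a gene on the same strand.

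In the large subunit, MRPL16 was lowest. This relative of bacterial L16 had 8.72, 8.11, 8.76, 8.53 and 8.5 FPKM in the HPC libraries, against 17, 16.5, 16.6, 17.1 and 17 FPKM in the DMSO libraries. The gene (ENSG00000166902) lies at chr11:59806135-59810872 on the - strand in GENCODE 29. Its values hardly spread within a group and did not overlap between them, with a log2 fold change of -0.97 ± 0.026 (SE, adjusted p = 7.88e-13). MRPL44, whose fold resembles ribonuclease III and whose variants cause an infantile cardiomyopathy, had 15.6, 14.8, 15.7, 15.9 and 12.5 FPKM in the HPC libraries, against 27.8, 25.1, 26.7, 24.2 and 27.5 FPKM in the DMSO libraries. HPC replicate 5 was the lowest of all 10 libraries, the groups did not overlap, and the log2 fold change was -0.82 ± 0.064 (SE, adjusted p = 8.22e-08).

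MRPL23, a protein at the exit of the tunnel, averaged 1.78 ± 0.228 FPKM with HPC and 3.25 ± 0.357 FPKM with DMSO (SD, n = 5 each), a log2 fold change of -0.84 ± 0.087 (SE, adjusted p = 9.98e-07). MRPL30, related to bacterial L30, averaged 9.41 ± 0.34 FPKM with HPC and 15 ± 0.535 FPKM with DMSO (SD, n = 5 each), a log2 fold change of -0.67 ± 0.032 (SE, adjusted p = 2.72e-10). Neither had overlapping groups; MRPL30 shares 19.5% of its exon bases with other genes on the same strand.

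Among members that rose, MRPL2 was highest. This relative of bacterial L2, a protein next to the site of peptide bond formation, had 6.37, 6.45, 6.68, 6.31 and 6.26 FPKM in the HPC libraries, against 4.32, 3.62, 4.05, 4.17 and 3.85 FPKM in the DMSO libraries. The gene (ENSG00000112651) lies at chr6:43054029-43059806 on the - strand in GENCODE 29. All HPC libraries were above all DMSO libraries, with a log2 fold change of 0.67 ± 0.044 (SE, adjusted p = 5.68e-09), and it was the 1 member called at least 1.5-fold higher. KLC4, on the opposite strand, overlaps 14.7% of its exon bases, and whether reads were counted by strand is not given in the sources used here.

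MRPL58, a peptidyl-tRNA hydrolase built into the central protuberance that also frees stalled ribosomes, had 11.7, 12, 11.1, 11.8 and 10.5 FPKM in the HPC libraries, against 8.47, 8.73, 8.49, 7.92 and 7.82 FPKM in the DMSO libraries. The groups did not overlap, and the log2 fold change was 0.46 ± 0.041 (SE, adjusted p = 1.93e-07). MRPL52, a protein added in mitochondria, averaged 3.26 ± 0.198 FPKM with HPC and 2.31 ± 0.118 FPKM with DMSO (SD, n = 5 each), a log2 fold change of 0.47 ± 0.049 (SE, adjusted p = 6.69e-07). MRPL54 averaged 11.1 ± 0.666 FPKM with HPC and 8.29 ± 0.692 FPKM with DMSO (SD, n = 5 each) and had a log2 fold change of 0.42 ± 0.056 (SE, adjusted p = 8.41e-06).

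MRPL36, related to bacterial L36, averaged 11.4 ± 0.179 FPKM with HPC and 8.65 ± 0.352 FPKM with DMSO (SD, n = 5 each) with a log2 fold change of 0.40 ± 0.030 (SE, adjusted p = 2.58e-08). MRPL47, related to bacterial L29, averaged 21.6 ± 0.875 FPKM with HPC and 17.5 ± 0.393 FPKM with DMSO (SD, n = 5 each) with a log2 fold change of 0.30 ± 0.030 (SE, adjusted p = 4.55e-07). In none of MRPL52, MRPL54, MRPL36 and MRPL47 did the groups overlap.

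**Figure D2:**
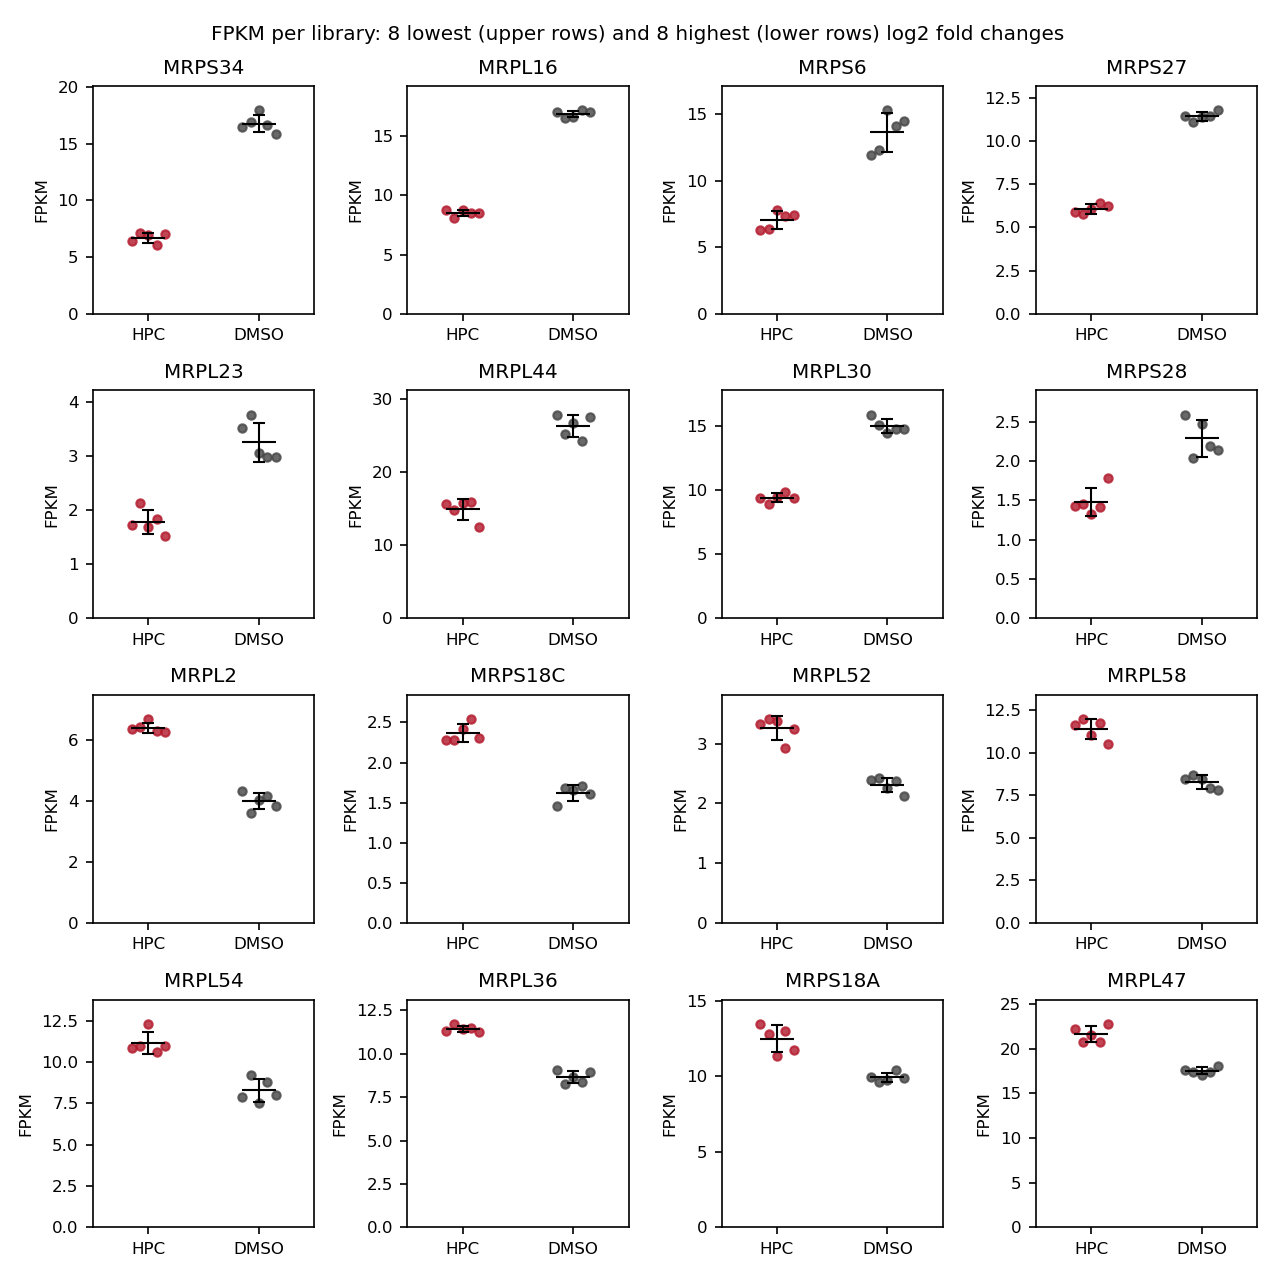
FPKM in each library (points) with mean and SD (bars), HPC on the left and DMSO on the right of each panel, for the 8 members with the lowest and the 8 with the highest log2 fold change; axes start at 0. In all 16 panels the HPC and DMSO points do not overlap, as for MRPS34 (mean 6.71 FPKM with HPC and 16.8 with DMSO) and MRPL2 (6.41 with HPC and 4.00 with DMSO). The panels were picked by their change, which favours such a gap. Groups did not overlap for 51 of all 77 tested members (66.2%) and for 79.6% of all tested genes.

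Humans have a family of relatives of bacterial S18, and its members moved apart. MRPS18C had 2.28, 2.28, 2.42, 2.54 and 2.31 FPKM in the HPC libraries, against 1.46, 1.68, 1.65, 1.71 and 1.61 FPKM in the DMSO libraries. It rose with no overlap of the groups, at a log2 fold change of 0.52 ± 0.048 (SE, adjusted p = 2.48e-07). MRPS18A averaged 12.5 ± 0.892 FPKM with HPC and 9.93 ± 0.301 FPKM with DMSO (SD, n = 5 each), a log2 fold change of 0.32 ± 0.045 (SE, adjusted p = 1.3e-05), and MRPS18B averaged 7.29 ± 0.339 FPKM with HPC and 8.75 ± 0.37 FPKM with DMSO (SD, n = 5 each), a log2 fold change of -0.26 ± 0.038 (SE, adjusted p = 2.18e-05). Genes on the opposite strand overlap 40.2% of the exon bases of MRPS18C (ABRAXAS1) and 47.0% of those of MRPS18A (RSPH9).

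Large and small subunits were set against each other by symbol. For comparison, 44.8% of all tested genes fell and 42.9% rose. Of 48 large subunit members, 25 fell (52.1%), 15 rose (31.2%) and 8 did not pass, with a median log2 fold change of -0.13. Of 29 small subunit members, 11 fell (37.9%), 10 rose (34.5%) and 8 did not pass, with a median of -0.00. The medians of the fold changes thus differed by -0.12, large minus small. Some symbols do not name the subunit a protein sits in: MRPS30 and MRPS18A belong to the large subunit, and MRPS36 belongs to a 2-oxoglutarate dehydrogenase complex. Sorted by structure, 25 of 50 large subunit members fell and 17 rose, 11 of 26 small subunit members fell and 8 rose, and the difference of medians was -0.008.

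The same comparison was made per library, with sums from recovered reads and log2 levels from FPKM. Genes were again sorted by symbol, so the small subunit sums, averages and medians here include MRPS30, MRPS18A and MRPS36. Large subunit genes had 2371 ± 36.6 RPM (reads scaled to the library total) with HPC and 2591 ± 31.0 with DMSO (SD, n = 5 each), a difference of -8.47%. Small subunit genes had 1752 ± 16.3 RPM with HPC and 1878 ± 16.7 with DMSO, a difference of -6.68%. Neither sum overlapped between the groups. The ratio of large to small reads was 1.35 ± 0.017 with HPC and 1.38 ± 0.0215 with DMSO, and here the libraries did overlap. Averaged over tested members, log2(FPKM + 0.1) of large minus small subunit was -0.123 ± 0.0242 with HPC and -0.112 ± 0.0203 with DMSO. These values also overlapped between the groups. The difference of median levels ran the other way. Within each library, the median log2(FPKM + 0.1) of large minus that of small subunit members was 0.251 ± 0.0464 with HPC (0.206 to 0.319) and -0.162 ± 0.0576 with DMSO (-0.257 to -0.101), with no overlap. The median of the small subunit members was 2.94 ± 0.0453 with HPC and 3.33 ± 0.0428 with DMSO, and that of the large subunit members 3.19 ± 0.0403 with HPC and 3.16 ± 0.0248 with DMSO. The sign of the difference between the subunits thus depended on the measure. In bulk RNA, fewer cells of a type and less RNA per cell cannot be told apart.

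**Figure D3:**
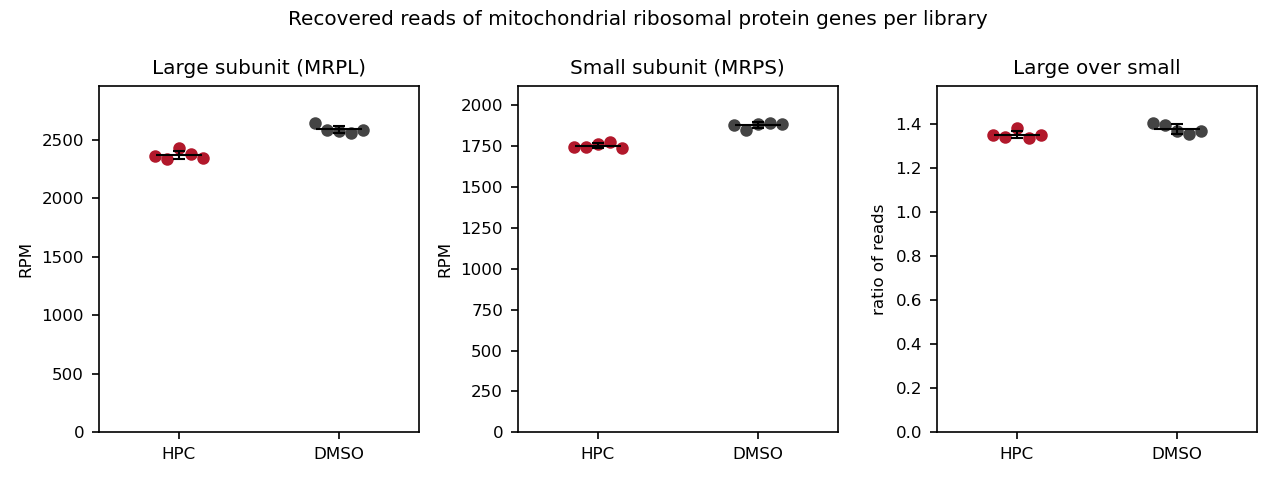
RPM of all large subunit symbols (MRPL, left) and all small subunit symbols (MRPS, middle), and their ratio (right), in each library (points) with mean and SD (bars), HPC left of DMSO. Axes start at 0. Both sums are lower in every HPC library, at means of 2371 with HPC and 2591 with DMSO for the large subunit, while the ratios of 1.35 with HPC and 1.38 with DMSO overlap between libraries.

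Regions of the large subunit held members of both directions, as did all tested genes, of which 44.8% fell and 42.9% rose. Of 5 proteins of the L7/L12 stalk and its base, which recruits translation factors, 2 rose and 2 fell. MRPL10 and MRPL54 rose, and MRPL11 and MRPL12 fell. MRPL10 had a log2 fold change of 0.29 ± 0.025 (SE, adjusted p = 1.3e-07) and MRPL11 of -0.47 ± 0.052 (SE, adjusted p = 1.26e-06). MRPL12, which also binds the mitochondrial RNA polymerase, had 62.3, 59.1, 61.2, 58.9 and 59.9 FPKM in the HPC libraries, against 64.5, 64.6, 69.4, 63.9 and 64.2 FPKM in the DMSO libraries, a log2 fold change of -0.12 ± 0.027 (SE, adjusted p = 0.0013); 68.2% of its exon bases overlap a gene on the same strand. Of 6 proteins at the tunnel exit, 3 fell, and 2 rose, of which MRPL17 turns sign under scaling to non-mitochondrial FPKM. MRPL45, which ties the ribosome to the inner membrane, fell with a log2 fold change of -0.23 ± 0.023 (SE, adjusted p = 5.41e-07). Of 7 proteins of the central protuberance, 3 rose and 2 fell. Among these rises, MRPL18 (0.04, adjusted p = 0.24) and MRPL48 (0.07, adjusted p = 0.356) no longer passed under scaling to non-mitochondrial FPKM.

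Proteins named for a bacterial relative and those named as mitochondrial additions were both split, as were all tested genes (44.8% lower and 42.9% higher). They were sorted by the systematic names of ribosomal proteins, which place MRPS18A and MRPS18B with the mitochondrial additions although both are related to bacterial S18. Among 45 named for a bacterial relative, 22 fell (48.9%) and 13 rose (28.9%), with a median of -0.10. Among 31 named as mitochondrial additions, 14 fell (45.2%) and 12 rose (38.7%), with a median of -0.03. Near the decoding site, MRPS12, related to bacterial S12, rose with a log2 fold change of 0.27 ± 0.050 (SE, adjusted p = 0.000174), a call lost under scaling to non-mitochondrial FPKM (0.11, adjusted p = 0.0589). MRPS2, related to bacterial S2, fell with a log2 fold change of -0.12 ± 0.028 (SE, adjusted p = 0.0017), and MRPL4, related to bacterial L4, with -0.18 ± 0.029 (SE, adjusted p = 5.85e-05). MRPS16 had a log2 fold change of 0.02 ± 0.027 (SE, adjusted p = 0.567), and MRPS36 of 0.10 ± 0.048 (SE, adjusted p = 0.0772).

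Of 41 members whose exons overlap another gene, 21 fell (51.2%) and 8 rose (19.5%), with a median of -0.12. Of 36 with no such overlap, 15 fell (41.7%) and 17 rose (47.2%), with a median of 0.08. The shares over all tested genes were 44.8% lower and 42.9% higher. The part of overlapping genes in these counts was not tested.

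Proteins of the mitochondrial ribosome with other symbols changed both ways as well. DAP3, a GTP-binding protein of the small subunit, had 7.7, 7.71, 7.46, 7.7 and 7.41 FPKM in the HPC libraries, against 6.02, 6.15, 5.93, 6.22 and 6.02 FPKM in the DMSO libraries. It rose with no overlap, at a log2 fold change of 0.32 ± 0.026 (SE, adjusted p = 5.09e-08). PTCD3, a pentatricopeptide repeat protein at the mRNA entry, had 6.16, 6.35, 6.21, 6.26 and 6.16 FPKM in the HPC libraries, against 9.98, 9.71, 9.56, 9.8 and 9.75 FPKM in the DMSO libraries. It fell with a log2 fold change of -0.64 ± 0.023 (SE, adjusted p = 1.47e-11), and so did CHCHD1 with -0.52 ± 0.051 (SE, adjusted p = 4.73e-07). GADD45GIP1 of the large subunit rose with 0.29 ± 0.030 (SE, adjusted p = 6.03e-07), and AURKAIP1 had -0.04 ± 0.039 (SE, adjusted p = 0.355).

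Levels of different members can be compared only per length. The length in the deposited FPKM matched the summed exons of all annotated transcripts within 5% for 69 members, so a gene with many annotated transcripts has a low FPKM. Levels were therefore also taken as RPM per kb of merged exons, written as merged level here. On that scale MRPS35 was highest, at 116 with HPC and 98.4 with DMSO, followed in DMSO by MRPL51 (57.7 with HPC and 68.7 with DMSO) and MRPL3 (71.5 with HPC and 67.7 with DMSO). By FPKM the highest were MRPL12, MRPL41 (69.6 ± 4.32 FPKM with HPC and 63.3 ± 2.46 with DMSO) and MRPS10 (53.8 ± 0.407 with HPC and 48.7 ± 1.54 with DMSO). MRPL55, with 34 annotated transcripts, had 0.861 ± 0.0837 FPKM with HPC and 0.691 ± 0.0246 with DMSO and was not tested, but had 10.9 with HPC and 8.78 with DMSO as merged level. Across the 77 members, the log2 fold change and the merged level in DMSO correlated at a Pearson r of -0.18 and a Spearman rho of -0.15; these are genes of the same libraries and no test was made.

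**Figure D4:**
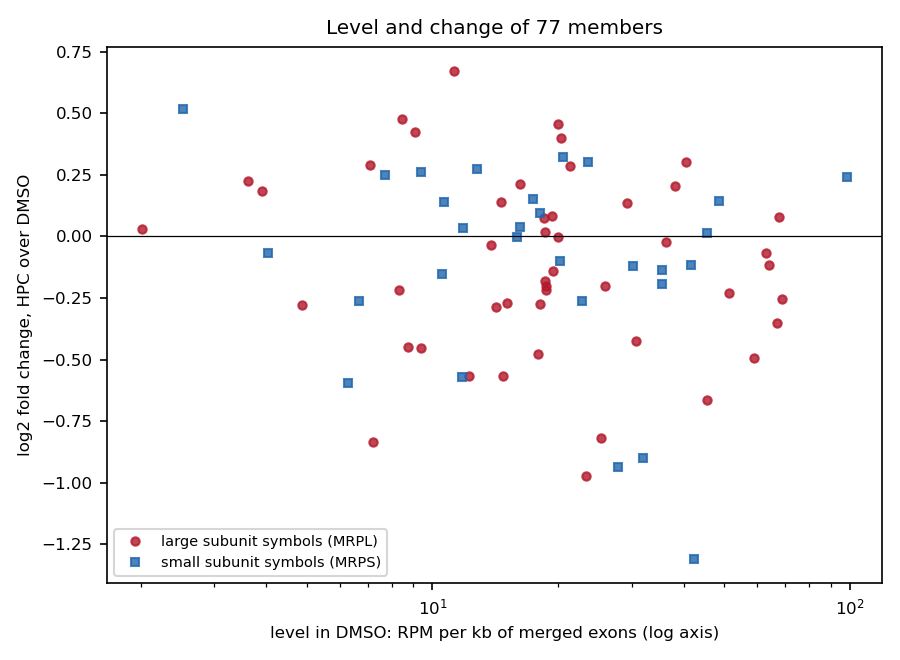
Merged level in DMSO in RPM per kb of merged exons (log axis) against log2 fold change, HPC over DMSO, with 1 point per tested member; circles are large and squares small subunit symbols. Members at low and at high levels lie on both sides of 0, with MRPS34 lowest at -1.31 and MRPS35 at the highest level, 98.4.

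The rest of the mitochondrial translation system was read beside the ribosomal proteins. Of all 9150 tested genes, 44.8% fell and 42.9% rose. Under scaling to non-mitochondrial FPKM, 5015 of them fell and 2957 rose. Of 12 tested translation factors, 6 fell and 3 rose (median -0.13): TSFM, the exchange factor of the elongation factor TUFM, had a log2 fold change of -0.61 ± 0.105 (SE, adjusted p = 0.000107), TUFM itself -0.40 ± 0.020 (SE, adjusted p = 3.41e-10), and the initiation factor MTIF2 0.66 ± 0.031 (SE, adjusted p = 2.23e-10). Of 24 tested assembly factors, 12 fell and 6 rose (median -0.10), between NOA1 at -1.02 ± 0.050 (SE, adjusted p = 2.76e-10) and NGRN at 0.87 ± 0.026 (SE, adjusted p = 1.94e-12). Of 15 tested mitochondrial aminoacyl-tRNA synthetases, which load tRNAs, 9 fell and 6 did not pass (median -0.17), with FARS2 lowest at -1.02 ± 0.065 (SE, adjusted p = 4.74e-09). OXA1L, which inserts new chains into the inner membrane, fell with -0.76 ± 0.037 (SE, adjusted p = 2.81e-10), and the mRNA-binding LRPPRC with -0.68 ± 0.023 (SE, adjusted p = 6.64e-12), while its partner SLIRP rose with 0.29 ± 0.063 (SE, adjusted p = 0.000812) and the translational activator TACO1 with 0.26 ± 0.053 (SE, adjusted p = 0.000454). Under scaling to non-mitochondrial FPKM neither rise passed, at 0.12 (adjusted p = 0.0791) for SLIRP and 0.09 (adjusted p = 0.115) for TACO1, and the assembly factors were split into 16 lower and 3 higher, the synthetases into 14 lower and 1 that did not pass, and the translation factors into 9 lower and 3 higher.

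What the mitochondrial ribosome translates, and the complexes it serves, were lower in more of their genes. Among all tested genes, 44.8% fell and 42.9% rose. Of 13 mitochondrial mRNAs, 10 fell and 1 rose (median -0.47). Under quantile normalization 7 fell and 3 rose (median -0.20). There MT-CO1 (-0.02), MT-CO2 (0.00) and MT-ND5 (-0.07) no longer passed, MT-ND4L turned to 0.06 and MT-ND4 was called higher at 0.45. This method gives genes of equal rank the same value in every library. Changes of top-ranked genes can thus be lost by construction. All other settings gave 10 to 12 mitochondrial mRNAs lower and 1 higher. MT-ND3 averaged 254 ± 28.5 FPKM with HPC and 911 ± 61.1 FPKM with DMSO (SD, n = 5 each), a log2 fold change of -1.85 ± 0.073 (SE, adjusted p = 5.36e-10), and MT-ND1 rose with 0.38 ± 0.030 (SE, adjusted p = 5.32e-08). Of 77 nuclear genes for respiratory chain and ATP synthase subunits, 65 fell and 2 rose (median -0.42), with NDUFB3 of complex I lowest at -1.33 ± 0.059 (SE, adjusted p = 1.37e-10). Of 77 proteins of the cytosolic ribosome, 43 fell and 24 rose (median -0.08, SD 0.23), between RPL7A at -0.78 ± 0.032 (SE, adjusted p = 4.04e-11) and RPL12 at 0.41 ± 0.028 (SE, adjusted p = 8.22e-09). That split was 61 lower and 6 higher under scaling to non-mitochondrial FPKM, and 61 lower and 7 higher under quantile normalization, while 73 of the respiratory chain genes fell under the first. Of all tested genes, 5015 fell and 2957 rose under scaling to non-mitochondrial FPKM, and 3982 fell and 4032 rose under quantile normalization. No test compared these lists with the mitochondrial ribosomal proteins.

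**Figure D5:**
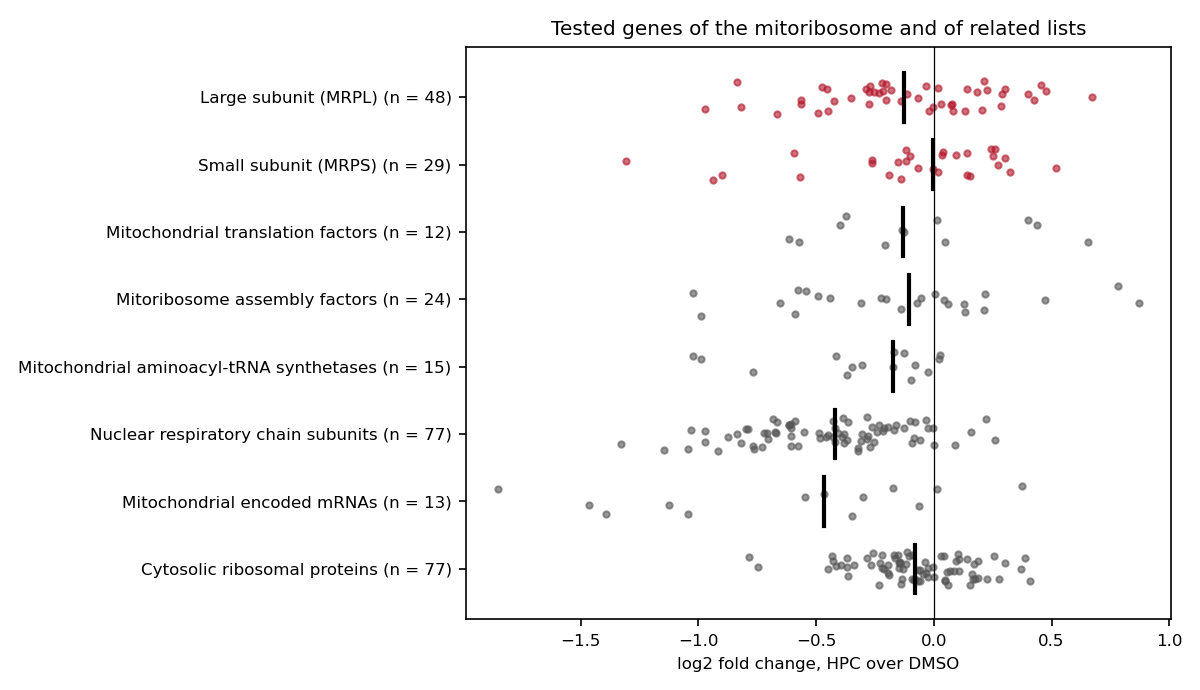
Log2 fold change, HPC over DMSO, of each tested gene (points, spread vertically for view) in the large and small subunit symbols (red) and in 6 related lists (grey), with the list's median (bar). The medians of the nuclear respiratory chain subunits (-0.42) and mitochondrial mRNAs (-0.47) lie below those of the large (-0.13) and small (-0.00) subunit. Points of both subunits spread on both sides of 0. Under quantile normalization, which gives genes of equal rank the same value, the median of the mitochondrial mRNAs is -0.20.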

How the data were processed

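Per the labels' protocols, poly(A) RNA was selected, fragmented, reverse-transcribed with random primers and sequenced from both ends. The authors deposited 1 table of FPKM for 16734 genes in 10 libraries. Tools in the submitters' processing notes are STAR 2.7.7a, fastp 0.23.2 and edgeR, for the build GRCh38.p13, without the step each served. How reads were counted, by strand or not, and on which annotation, is not given in the sources used here.

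Members and lists were chosen with earlier results of these data known. The 9150 genes that reached 1 FPKM in 5 or more libraries were tested on log2(FPKM + 0.1), a scale that understates changes of low genes, with limma 3.58.1 in R 4.3.3 (trend and robust, two-sided, Benjamini-Hochberg at 0.05). On simulated data for 9150 genes, 50 genes each were changed by 1.25, 1.5, 2 and 4 fold. Of these, 100% were recovered, and 10 of 210 calls were false. Every simulated gene had the same independent noise (SD 0.0571 on the log2 scale), and far fewer genes changed than in the real data. These shares therefore do not measure power or error for the real genes, whose spread differs. Whole reads were recovered within 0.0001 of a read for all 15208 eligible genes; members had 464 to 17292 reads per library, and the SD within a group was at the median 4.75% of the mean with HPC and 4.11% with DMSO. Run on those reads, limma's voom called 25 members higher and 36 lower. Coordinates of exons are from GENCODE 29. Genes named are the 8 lowest and 8 highest members, a set kept whatever its values and the 3 highest by FPKM in each subunit. Untested members and up to 3 at each end of each list were also named. Promoter examples, MRPL18, MRPL48, the members whose sign turns and those with the highest merged levels were named after values were seen. Replicate numbers are shared by the groups, but the labels do not say whether same-numbered libraries belong together. Of the same-numbered pairs, 2 of 5 correlated over 0.1, and they were not taken as pairs.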

Additional observations from a re-analysis of the deposited data

Results flagged for a closer look

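In 164 groups of 5 libraries examined for a library apart from the others of its group, 14 were found, and chance gives about 1 in 20. HPC replicate 4 was the lowest of its group for 5 of these members, and the part of this library in the results was not tested beyond leaving it out. Libraries above the rest of their group were MRPS35 in DMSO replicate 5 (37.4 FPKM, nearest 36.5), MRPL37 in DMSO replicate 5 (27 FPKM, nearest 26.1), MRPS25 in DMSO replicate 4 (7.56 FPKM, nearest 5.68), MRPL54 in HPC replicate 3 (12.3 FPKM, nearest 11), MRPL53 in HPC replicate 2 (10.3 FPKM, nearest 9.42), MRPL12 in DMSO replicate 3 (69.4 FPKM, nearest 64.6). Libraries below the rest were MRPS24 in HPC replicate 4 (9.9 FPKM, nearest 11.8), MRPL35 in HPC replicate 2 (8.98 FPKM, nearest 9.92), MRPL15 in HPC replicate 4 (25.1 FPKM, nearest 27.8), MRPL14 in HPC replicate 4 (20 FPKM, nearest 22.6), MRPL21 in HPC replicate 4 (3.07 FPKM, nearest 3.53), MRPL38 in HPC replicate 4 (5.02 FPKM, nearest 5.49), MRPL53 in DMSO replicate 4 (7.74 FPKM, nearest 9.94). The small subunit genes together had 1850 RPM (reads scaled to the library total) in DMSO replicate 2, with the nearest at 1880. MRPL12, MRPL14, MRPL21, MRPL35, MRPL37, MRPL54 and MRPS35 were called, the others named were not.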

How the results depend on the processing

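Leaving out 1 library at a time gave 24 to 27 members higher and 35 to 37 lower. Fitting the replicate number as a block gave 24 higher and 36 lower. Same-numbered libraries correlated at -0.0593 to 0.1993, and 2 of 5 HPC libraries correlated best with their own number. These values do not settle whether the numbers pair the samples. Requiring 5 FPKM left fewer genes tested, with 1969 higher and 1836 lower. Scaling to the FPKM of non-mitochondrial genes left 11 members higher (large subunit 7, small subunit 4) and 17 small subunit members lower; the cause was not tested. Sorting by structure moved the difference of subunit medians to -0.008. Under scaling to non-mitochondrial FPKM these log2 fold changes turned: ATP5ME -0.01, MRPL3 -0.09, MRPL41 -0.03, MRPS10 -0.02, MRPS16 -0.15, MRPS22 -0.02, MRPS30 -0.01, MRPS36 -0.07, MT-ND4 -0.16, NARS2 -0.14 and YARS2 -0.15. Quantile normalization turned MRPL41 (-0.04), MRPS10 (-0.03), MRPS16 (-0.05) and YARS2 (-0.05), and rescaling to TPM turned MRPS16 (-0.01), MT-ND4 (-0.02), NARS2 (-0.00) and YARS2 (-0.01). Scaling to the median of tested genes turned MARS2 (0.01). Without 1 library, MARS2 ranged between -0.06 and 0.02, MRPS16 between -0.00 and 0.03, MT-ND4 between -0.02 and 0.05, NARS2 between -0.02 and 0.07 and YARS2 between -0.00 and 0.05, so each took both signs; none of these passed the test as deposited. The call of MRPL3 was also lost under TPM (0.05), quantile normalization (0.01), the block (adjusted p = 0.0504) and without HPC replicate 3 or 4 or DMSO replicate 2 or 4 (adjusted p = 0.0566 to 0.0751). Of 1804 values of named genes under the alternatives, 1746 kept direction and side of the threshold. Scaling to recovered reads or to the median, voom and a filter on merged exons were chosen after seeing the data. The fewest reads of a member in a library were 464.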
